A study of Mus musculus with 24 samples.

Results

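The acute phase protein genes are 10 genes that encode secreted plasma proteins of the liver, namely serum amyloid A (Saa1, Saa2 and Saa3), lipocalin 2 (Lcn2), the orosomucoids (Orm1, Orm2 and Orm3), haptoglobin (Hp), hemopexin (Hpx) and inter-alpha-trypsin inhibitor heavy chain 4 (Itih4). They were chosen by gene symbol out of 55421 genes in the count table, and all 10 were among the 13583 genes with enough counts to be tested. They were measured by polyA RNA-seq of hepatocytes that were freed by liver perfusion, purified, snap frozen and extracted with TRIzol, in 24 male mice. The groups were young mice on normal diet (young ND), young mice on high-fat diet (young HFD), old mice on normal diet (old ND) and old mice on high-fat diet (old HFD), with 6 mice in each and no genetic change or drug in any of them. The labels give an age of 6 months and the substrain C57BL/6N for young mice, and 24 months and C57BL/6J for old mice, so age and its effect on these genes cannot be told apart from substrain. The study's own text gives other ages. HFD (58y1) supplied 60% of energy as fat for 9 weeks, and the labels name a Teklad global chow as ND, where the study's methods name diet 58Y2, lower in fat. The libraries came in 2 batches, with 3 mice of each group per batch except that old ND had 2 in batch 1 and 4 in batch 2.

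The acute phase response is the change in plasma proteins that hepatocytes make when tissue is injured or infected. Interleukin-6 and related cytokines act through gp130, JAK kinases and STAT3, and interleukin-1 and tumor necrosis factor act through NF-kappaB and C/EBP factors, to raise transcription of the positive acute phase genes, while negative acute phase genes such as albumin and transthyretin fall. Some positive genes, such as Saa1 and Saa2, are barely transcribed at rest and rise steeply, whereas others, such as Hp, Hpx and Itih4, are already abundant in the resting liver.

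A single mouse carried many of the highest values. In old ND replicate 4, a batch 2 library of 13692834 counts, the 10 genes took 5.41% of all counts on genes, against 0.691% to 1.63% in the other 23 mice. Its 10 values were each above all 5 other old ND mice. For comparison, 29.8% of the 13583 tested genes were above all 5 and 28.3% were below all 5 in that mouse, so it stood apart over the whole transcriptome. Among 11718 genes with a median of at least 1 CPM (the reads on a gene scaled by the library size) in the other 5 old ND mice, the ratio to that median ranked first for Saa2, and the ranks of Saa1, Lcn2, Orm2 and Orm3 were 3, 5, 6 and 9. Over genes other than these 10, its median correlation with its own group was 0.901, and only old HFD replicates 2 and 4 were lower, at 0.893 and 0.890. Total counts were 9200332 to 22185069 per mouse. The calls in each comparison are therefore given with all 24 mice and again without old ND replicate 4, a mouse picked out after the values were seen and also 1 of the 24 left out in turn. Fold changes are printed for only some of the 10 genes in most comparisons.

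**Figure D1:**
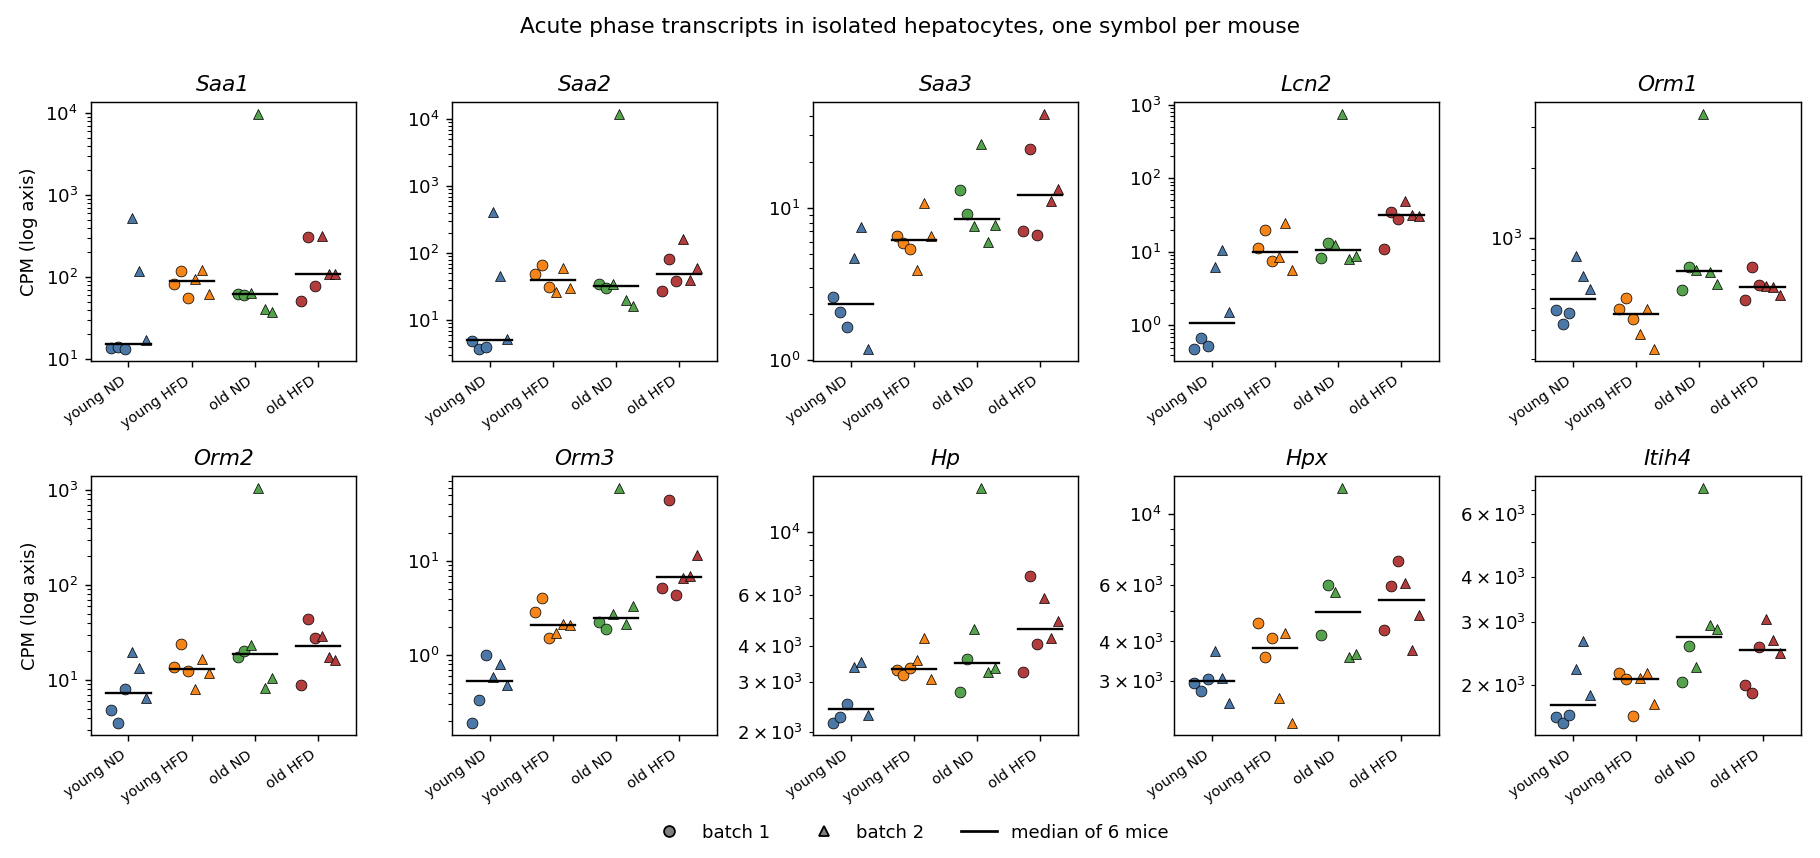
CPM of each gene on a log axis, with 1 symbol per mouse, circles for batch 1, triangles for batch 2 and a bar at the median of each group of 6. Old ND replicate 4 is the top triangle of old ND in every panel, at 9818 CPM for Saa1 and 12002 CPM for Saa2, and Orm3 rises from a median of 0.532 CPM in young ND to 6.81 CPM in old HFD.

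Saa1 and Saa2 encode the serum amyloid A proteins that circulate on high-density lipoprotein. Saa1 lies at chr7:46740497-46742980 on the minus strand and Saa2 at chr7:46751790-46754313 on the plus strand (GRCm38, the mm10 build), back to back and transcribed away from each other. Saa1 ranged from 13.1 CPM through a median of 15.4 to 531 in young ND, from 56.1 through 88.3 to 121 in young HFD, from 37.0 through 61.3 to 9818 in old ND, and from 51.3 through 109 to 317 in old HFD. The groups overlapped, since young ND held 4 mice at 13.1 to 17 CPM and 2 batch 2 mice, replicates 5 and 4, at 118 and 531. Old ND replicate 4 held 120173 reads of Saa1, 164-fold over the median of the other 5 old ND mice, which lay between 37.0 and 63.0 CPM. Saa2 ran in parallel, from 3.69 through 5.08 to 408 CPM in young ND, from 26.5 through 40.2 to 66.8 in young HFD, from 16.1 through 32.1 to 12002 in old ND and from 27.4 through 49.9 to 165 in old HFD. That mouse was again the highest, 400-fold over the median of the other 5.

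The start regions of both genes are shown because they rose and fell in the same mice, from 250 to 51 bases before the RefSeq start (GRCm38.p6), read 5′ to 3′ along the gene's own strand, Saa1 from chr7:46743031-46743230 on the minus strand and Saa2 from chr7:46751583-46751782 on the plus strand, with capitals for matches to the C/EBP motif TTNNGNAA and to an NF-kappaB motif (3 G, 5 of any base, 2 C) on either strand.
Saa1: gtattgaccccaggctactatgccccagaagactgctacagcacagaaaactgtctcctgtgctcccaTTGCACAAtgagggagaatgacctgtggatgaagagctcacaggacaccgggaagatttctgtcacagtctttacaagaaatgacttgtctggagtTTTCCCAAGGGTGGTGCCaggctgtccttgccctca
Saa2: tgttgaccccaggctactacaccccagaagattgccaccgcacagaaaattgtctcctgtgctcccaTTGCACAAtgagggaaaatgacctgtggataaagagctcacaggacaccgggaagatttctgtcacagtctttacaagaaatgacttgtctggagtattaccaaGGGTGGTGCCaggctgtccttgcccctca
The 2 stretches were identical at 188 of 201 aligned positions (93.5%). Both hold TTGCACAA and GGGTGGTGCC at nearly the same distance from the start, and a second C/EBP match, TTTCCCAA, is in Saa1 alone. Such a match is a description of the letters. Over the whole window, from 250 bases before to 50 after the start, the C/EBP motif was in 7 of the 8 genes that the RefSeq promoter table holds, beside 40.7% of its 32851 promoters, and the NF-kappaB motif in 4 of 8, beside 50.8%. The STAT motif TTCNNNGAA was in 1 of 8, beside 8.30%, and the type II interleukin-6 response element CTGGGA in 3 of 8, beside 31.8%. Orm1 and Hp were not among the 8. The longest transcripts of Saa1 and Saa2 were 93.9% identical and 13.2% of the 50-base windows of Saa1 occur unchanged in Saa2, so part of the reads could not be told apart and the split between the pair is uncertain.

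Saa3 encodes a serum amyloid A that is also made outside the liver, by macrophages and fat cells among others, and lies at chr7:46711998-46715700. Its values were 1.18, 2.34 and 7.45 CPM (lowest, median and highest) in young ND, 3.92, 6.18 and 10.8 in young HFD, 5.93, 8.47 and 26.5 in old ND, and 6.6, 12.2 and 41.5 in old HFD. Unlike the other 9 genes, its highest value was not in old ND replicate 4, at 26.5 CPM, but in old HFD replicate 4, at 41.5 CPM. With 62.2% identity to Saa1 and 1.61% of Saa1 windows in common, it shares less sequence with Saa1 than Saa2 does.

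Lcn2 encodes a small secreted protein that binds bacterial siderophores and so withholds iron, and is made by hepatocytes and stored by neutrophils. It lies at chr2:32384633-32388252. Its values were 0.473, 1.08 and 10.5 CPM in young ND, 5.63, 9.91 and 24.4 in young HFD, 7.94, 10.6 and 747 in old ND, and 10.8, 31.1 and 48.6 in old HFD. Every old HFD mouse was above every young ND mouse, while the other pairs of groups overlapped. The 3 young ND mice of batch 1 lay at 0.473 to 0.671 CPM and those of batch 2 at 1.5 to 10.5. Some markers of other cells split the same way between these mice, with summed Kupffer cell and macrophage markers of 1.95 to 5.10 CPM in batch 1 and 50.8 to 88.0 in batch 2, sinusoidal endothelial markers of 11 to 27.9 and 78 to 119, and stellate cell markers of 5.91 to 17 and 52.3 to 78.6. The neutrophil sums overlapped, at 0.132 to 0.567 and 0.344 to 1.44, as did the T cell, B cell, cholangiocyte and adipocyte sums. The part of other cells in the Lcn2 level was not tested. Old ND replicate 4 was 85.9-fold over the median of the other 5 old ND mice, which held 7.94 to 13.1 CPM.

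The orosomucoids (alpha-1 acid glycoproteins) are abundant plasma proteins that bind drugs and lipids. Their genes form a cluster on the plus strand of chromosome 4, in the order Orm1 (chr4:63344560-63348163), Orm3 (chr4:63356162-63359511) and Orm2 (chr4:63362449-63365878). Orm1, the most abundant of them, had values of 424, 546 and 837 CPM in young ND, 331, 470 and 551 in young HFD, 594, 718 and 3416 in old ND, and 542, 616 and 748 in old HFD. Its medians were lower on HFD than on ND at both ages, and outside old ND replicate 4 its range over all mice was from 331 to 837 CPM. Orm2 was far lower at rest, at 3.49, 7.21 and 19.8 CPM in young ND, 8.11, 13 and 23.8 in young HFD, 8.15, 19 and 1053 in old ND, and 8.89, 22.5 and 44.2 in old HFD. It was 59.9-fold over the other 5 old ND mice in replicate 4, against 4.81-fold for Orm1.

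Orm3 separated the groups in 4 of the 5 comparisons between them, and of the other 9 members, Lcn2 and Hpx did in 1. The share of all 13583 genes whose groups did not overlap was 4.83% in young HFD against young ND, 3.8% in old ND against young ND (4.45% without old ND replicate 4), 1.26% in old HFD against old ND (1.93% without that mouse), 0.802% in old HFD against young HFD and 7.26% in old HFD against young ND. Its values were 0.189, 0.532 and 0.994 CPM in young ND, 1.52, 2.10 and 4.07 in young HFD, 1.90, 2.49 and 59.8 in old ND, and 4.35, 6.81 and 44.9 in old HFD. Each young HFD mouse and each old ND mouse was above all 6 young ND mice, and each old HFD mouse was above all young HFD mice. Each old HFD mouse was also, with old ND replicate 4 set aside, above the other 5 old ND mice, which lay between 1.90 and 3.37 CPM. Its counts were small, at 4 to 15 reads per mouse in young ND and 54 to 585 in old HFD. Its longest transcript was 88.0% identical to that of Orm2 with 3.58% of 50-base windows of Orm2 in common, and Orm1 shared 20.4% of its windows with Orm2. Reads of Orm1 could therefore fall on Orm2, and less so on Orm3.

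The Orm2 and Orm3 start regions are shown because both were low at rest and rose steeply in old ND replicate 4, over the same 250 to 51 bases before the start, from chr4:63362199-63362398 and chr4:63355908-63356107 on the plus strand, with C/EBP motif matches in capitals.
Orm2: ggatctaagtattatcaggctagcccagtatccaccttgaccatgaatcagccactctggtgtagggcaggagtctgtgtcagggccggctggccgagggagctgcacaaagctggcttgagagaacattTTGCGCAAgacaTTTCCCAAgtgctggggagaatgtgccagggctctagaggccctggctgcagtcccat
Orm3: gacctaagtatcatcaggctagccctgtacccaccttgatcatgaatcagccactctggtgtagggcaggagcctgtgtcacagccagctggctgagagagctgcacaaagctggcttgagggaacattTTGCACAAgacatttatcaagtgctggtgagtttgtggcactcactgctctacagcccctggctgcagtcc
The 2 were identical at 173 of 204 aligned positions (84.8%). Orm2 holds TTGCGCAA and TTTCCCAA, and Orm3 holds TTGCACAA, the same 8 letters as in Saa1 and Saa2.

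Haptoglobin (Hp, chr8:109575128-109579172) binds free hemoglobin and hemopexin (Hpx, chr7:105591613-105600137) binds free heme, and both deliver their load to scavenger receptors. Hp had 2145, 2397 and 3515 CPM in young ND, 3074, 3315 and 4265 in young HFD, 2762, 3481 and 14227 in old ND, and 3245, 4568 and 6993 in old HFD. The highest old HFD value was replicate 2. Hpx had 2571, 3010 and 3723 CPM in young ND, 2217, 3829 and 4578 in young HFD, 3579, 4948 and 12101 in old ND, and 3761, 5408 and 7135 in old HFD. All 6 old HFD mice were above all young ND mice for Hpx, and 5 of 6 were for Hp. The ratio of old ND replicate 4 to the other 5 was 4.24 for Hp and 2.89 for Hpx.

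Itih4 (chr14:30886476-30902353) encodes a plasma protein of the inter-alpha-trypsin inhibitor family. It had 1563, 1763 and 2644 CPM in young ND, 1639, 2080 and 2164 in young HFD, 2037, 2719 and 7074 in old ND, and 1901, 2500 and 3052 in old HFD. Outside old ND replicate 4, where it was 2.75-fold over the others, the groups overlapped in each of the 5 comparisons.

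**Figure D2:**
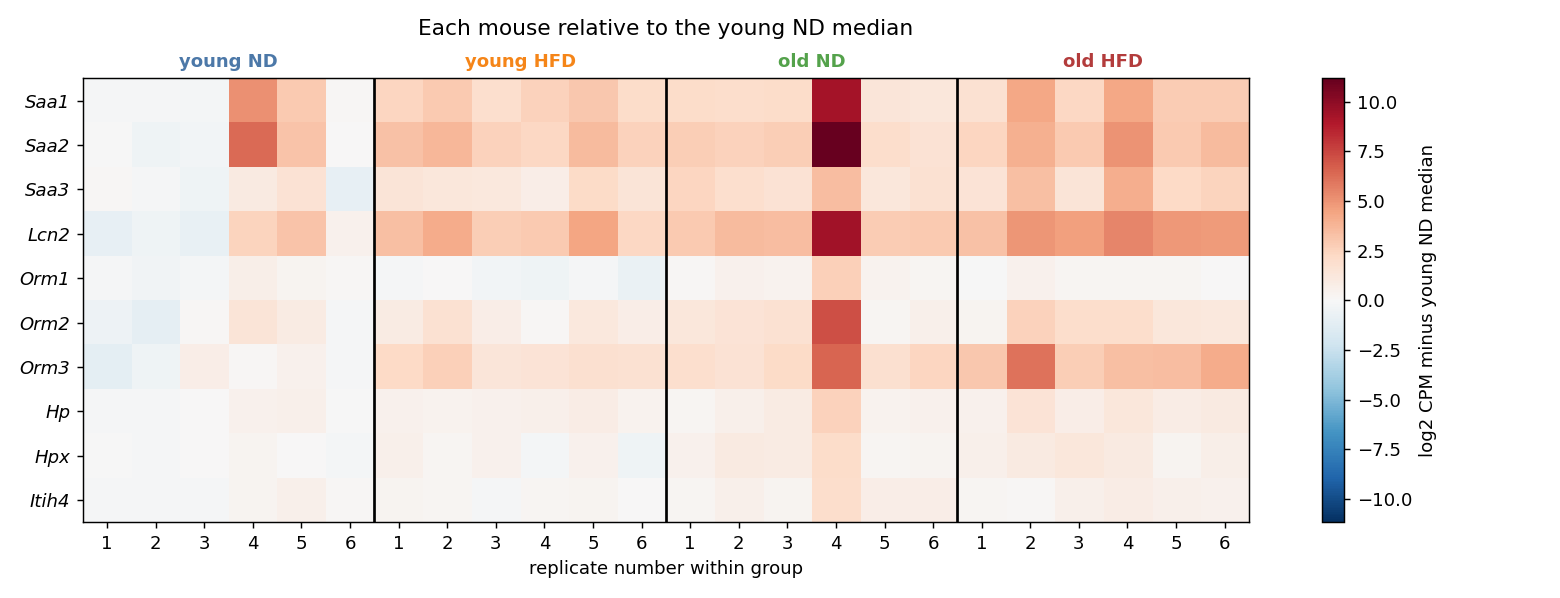
Each mouse's log2 CPM minus the young ND median of the same gene, with 10 genes as rows and 24 mice as columns in order of group and replicate number, and red for higher values. Old ND replicate 4 is red in all 10 rows and deepest for Saa2, and after it Saa1 is highest in young ND replicate 4 and old HFD replicates 4 and 2, at 531, 317 and 307 CPM. Every HFD mouse is at 51.3 CPM of Saa1 or more and every old ND mouse at 37.0 or more, against a young ND median of 15.4.

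Set per length in the FPKM values that the authors adjusted between batches, Hp was the most abundant member in young ND, with a median of 823 FPKM, followed by Hpx (363), Orm1 (193) and Itih4 (122). Saa1 (24.4) and Saa2 (8.72) were next, then Orm2 (3.05), and Saa3 (0.963), Lcn2 (0.500) and Orm3 (0.194) were lowest. From Saa1 downward, the ranges of neighbours in this order overlapped over the 6 young ND mice, and the ranges of the 4 most abundant did not. FPKM and CPM did not keep 1 ratio in these genes. For Saa1, 1 CPM stood for 0.409 to 3.29 FPKM in batch 1 and for 0.101 to 0.611 in batch 2, and for Saa2 for 0.464 to 6.37 and 0.0615 to 0.696, whereas for Hpx the range was 0.107 to 0.137 and 0.104 to 0.153. The ratio of old ND replicate 4 to the other 5 old ND mice was 33.3 for Saa1 and 45.2 for Saa2 in FPKM, against 164 and 400 in CPM. The highest Saa1 in FPKM was in old HFD replicate 2, at 1010, ahead of 989 in old ND replicate 4, although their CPM were 307 and 9818. Hp and Orm3 changed their highest mouse in the same way. How much of this came from the batch adjustment and how much from the other way of quantifying was not tested. The comparisons below rest on the counts.

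The effect of age on normal diet, old ND against young ND, was tested with edgeR's quasi-likelihood test in a model of group and batch over 24 mice, and log2 fold changes are given ± SE. Of the 10 genes, 6 were called higher and 0 lower at an adjusted p of 0.05, beside 8.5% of all tested genes called in either direction and 7.26% called higher. The 6 were Lcn2 (5.01 ± 1.07, adjusted p = 0.00558), Orm3 (4.36 ± 0.94, 0.00595), Orm2 (4.10 ± 0.99, 0.0122), Saa3 (1.81 ± 0.45, 0.0146), Hpx (0.97 ± 0.26, 0.0188) and Itih4 (0.70 ± 0.21, 0.0392). Saa2 (4.51 ± 1.45, adjusted p = 0.0525) and Saa1 (3.63 ± 1.21, 0.0645) had large values that missed the threshold, as did Orm1 (0.90 ± 0.32, 0.0848) and Hp (0.89 ± 0.29, 0.0592). Without old ND replicate 4, 1 of 10 was called, Orm3, at 2.2 ± 0.54 (adjusted p = 0.0229), beside 4.26% of genes called and 3.81% called higher. Lcn2 was then 1.80 ± 0.56 (adjusted p = 0.0691), Saa3 1.48 ± 0.44 (0.0611), Hpx 0.63 ± 0.19 (0.0595), Itih4 0.39 ± 0.13 (0.0995) and Orm2 0.78 ± 0.41 (0.343). Saa1 and Saa2 turned to -0.76 ± 0.78 (adjusted p = 0.695) and -1.03 ± 0.94 (0.652). The median of the 10 fell from 2.72 to 0.51, where the median of all genes was 0.01 and 0.02. DESeq2 over 24 mice called 3 of the 10, beside 12.4% of genes, and at an unadjusted p under 0.05 all 10 passed with edgeR, beside 22.2%.

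Within batches and without that mouse, the mean log2 CPM difference of Orm3 between old and young ND was 2.00 in batch 1 and 1.94 in batch 2. For Saa1 it was 2.18 and -1.17, and for Saa2 2.91 and -1.06, so the direction of the pair differed between batches. For Lcn2 it was 3.96 and 1.01. Of the 10 genes, 10 were above 0 in batch 1 and 7 in batch 2.

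In young mice, 9 of 10 log2 fold changes on HFD were above 0, with a median of 0.76 (0.01 over all genes), and without old ND replicate 4, 8 of 10 were, with a median of 0.33 (0.05 over all genes). None of the 10 passed with edgeR over 24 mice, where 3.5% of all genes did, and none with DESeq2, where 9.26% did. At an unadjusted p under 0.05 the count was 3, beside 21.2% of genes, namely Lcn2 (2.56 ± 1.03, adjusted p = 0.147), Orm3 (2.11 ± 0.91, 0.178) and Saa3 (1.04 ± 0.45, 0.179). Without old ND replicate 4, a mouse of neither group, Lcn2 (2.23 ± 0.55, adjusted p = 0.0226) and Orm3 (2.09 ± 0.52, 0.026) were called higher, beside 4.95% of genes. The SE of Lcn2 went from 1.03 to 0.55, in a model that shares 1 estimate of the spread of a gene over all groups. Within batch 1 and within batch 2, Lcn2 differed by 4.14 and 1.16, and Orm3 by 2.32 and 1.51. The batches did not give the same direction for most of the others. In batch 1 all 10 differences were above 0, with 2.59 for Saa1 and 3.44 for Saa2, and in batch 2, 6 of 10 were below 0, namely Saa1 (-0.19), Saa2 (-0.35), Orm1 (-0.82), Orm2 (-0.04), Hpx (-0.08) and Itih4 (-0.15).

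The effect of HFD in old mice turned on the same mouse. Over 24 mice edgeR called 0 of 10, beside 3.01% of genes, and DESeq2 0, beside 9.17%. At an unadjusted p under 0.05 the count was 3, beside 22% of genes, namely Saa2, Orm1 and Orm2 with lower values on HFD, and 8 of 10 log2 fold changes were below 0, with a median of -0.57. With that mouse left out, 8 of 10 were above 0, with a median of 0.79, and Orm3 was called higher at 2.32 ± 0.51 (adjusted p = 0.017), beside 2.94% of genes. Over 24 mice Orm3 was 0.23 ± 0.83 (adjusted p = 0.911), and without old HFD replicate 2 it was -0.57, so its direction turned on single mice. Saa1 went from -2.14 ± 1.36 (adjusted p = 0.369) to 1.64 ± 0.75 (0.201) and Lcn2 from -1.34 ± 0.99 (0.45) to 1.62 ± 0.54 (0.0889). Orm3 differed by 2.22 within batch 1 and by 1.55 within batch 2, that mouse left out.

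Between old HFD and young HFD, the effect of age on HFD, all 10 log2 fold changes were above 0. edgeR called 0 of them over 24 mice, beside 2.24% of genes, with 3 at an unadjusted p under 0.05, beside 21% of genes, and DESeq2 called 1, beside 6.34%. The largest were Orm3 (2.48 ± 0.79, adjusted p = 0.0878) and Saa3 (1.38 ± 0.44, 0.0872). Without old ND replicate 4, Orm3 was called at 2.44 ± 0.47 (adjusted p = 0.00899), beside 2.9% of genes, and Saa3 was 1.40 ± 0.41 (0.0607). Orm3 differed by 1.90 and 1.98 within the batches. Its size rested in part on old HFD replicate 2, at 44.9 CPM where the other 5 were at 4.35 to 11.7. Without that mouse Orm3 was 1.31 ± 0.73 (adjusted p = 0.385), and without it, old HFD replicate 4 and old ND replicate 4 it was 1.5 ± 0.34 (0.0528).

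Old HFD against young ND, where age and diet both differ, gave more calls over all genes than the other 4 comparisons. Over 24 mice, 5 of 10 were called higher and 0 lower, beside 30.2% of all genes called and 17.3% called higher. They were Orm3 (4.59 ± 0.92, adjusted p = 0.00125), Lcn2 (3.67 ± 1.03, 0.0109), Saa3 (2.42 ± 0.46, 0.000824), Hp (0.89 ± 0.29, 0.0232) and Hpx (0.82 ± 0.25, 0.0182). The SE of Orm3 and Lcn2 fell without old ND replicate 4, where Orm3 was 4.52 ± 0.54 (adjusted p = 1.15e-05) and Lcn2 3.42 ± 0.55 (0.000197). Orm2 (1.39 ± 0.40, adjusted p = 0.0118) and Itih4 (0.38 ± 0.13, 0.0252) then joined, for 7 of 10, beside 32.2% of genes called and 20.2% called higher. Saa1, Saa2 and Orm1 passed in neither. At an unadjusted p under 0.05, 5 of 10 passed over 24 mice, beside 42.3% of genes, and DESeq2 called 3, beside 34.5%. Within the batches Orm3 differed by 4.22 and 3.49, and Lcn2 by 5.01 and 2.92.

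**Figure D3:**
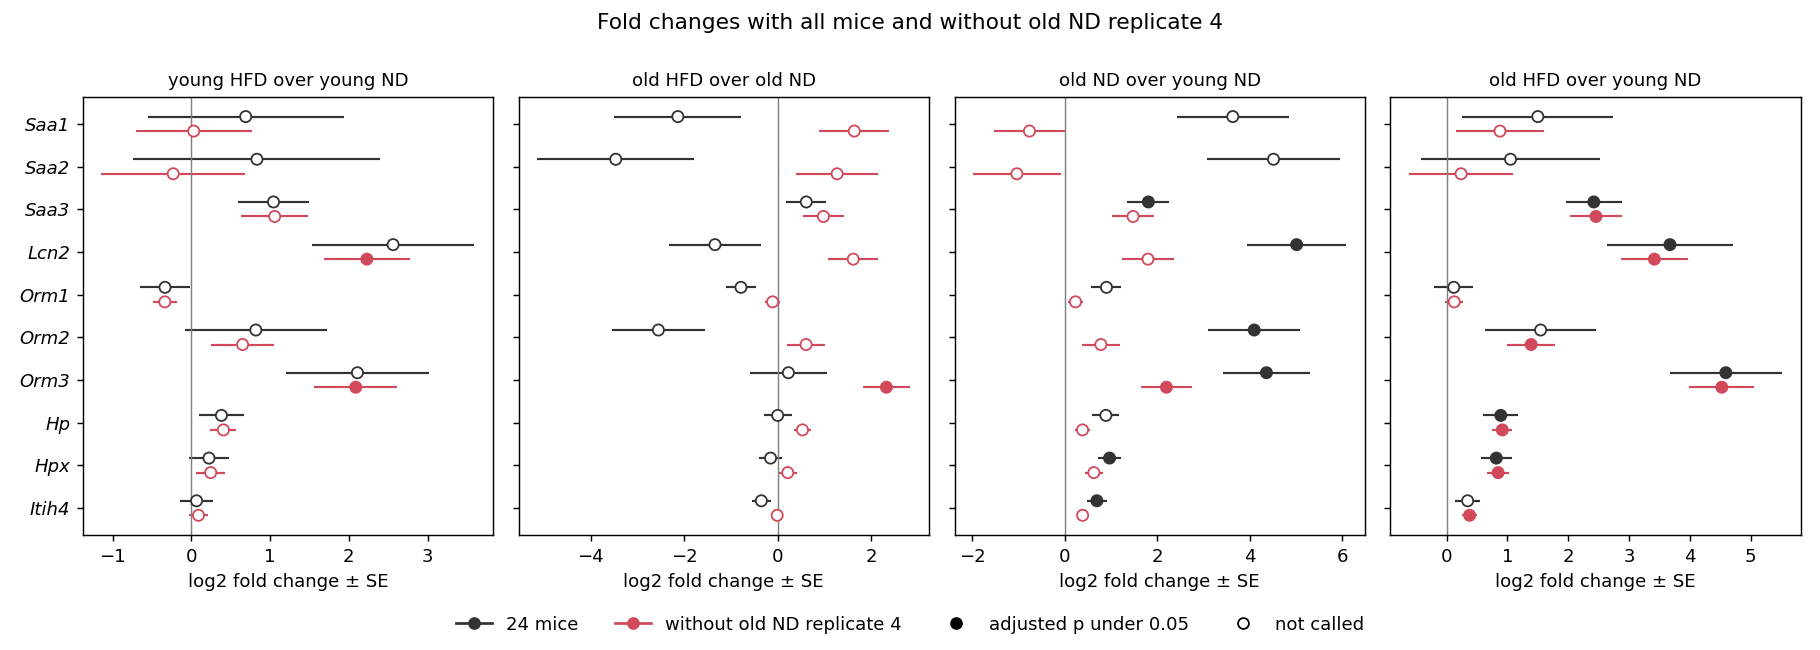
Log2 fold change ± SE of the 10 genes in 4 comparisons, each panel with its own axis, with 24 mice in grey and without old ND replicate 4 in red, and filled symbols for an adjusted p under 0.05. In old ND over young ND the red values of Saa1 and Saa2 lie below 0, at -0.76 and -1.03, while Orm3 stays above 0 with a filled symbol in both, at 4.36 and 2.2.

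Whether HFD acted differently in old and young mice was tested by the age by diet interaction. edgeR called 0 of the 10 genes and 0% of all genes over 24 mice, and 0% also without old ND replicate 4, and DESeq2 called 0 of the 10, beside 0.0295% of genes. At an unadjusted p under 0.05, the counts were 3 of 10 and 1247 of 13583 (9.18%). The 3 were Saa2, Lcn2 and Orm2, and the value of Lcn2 was -3.90 ± 1.33 (adjusted p = 0.531) with all mice and -0.61 ± 0.74 (0.864) without old ND replicate 4. All 10 values were below 0 with all mice, and 5 of 10 were above 0 without it.

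Of 26 other positive acute phase genes, 7 were called higher and 0 lower in old ND over young ND, 3 higher and 0 lower in young HFD over young ND, and 0 higher and 2 lower in old HFD over old ND, beside 8.5%, 3.5% and 3.01% of all genes called in either direction. With that mouse left out these counts were 5 and 0, 8 and 0, and 1 and 0, beside 4.26%, 4.95% and 2.94%. Il1rn, the interleukin-1 receptor antagonist, rose in young HFD over young ND by 3.11 ± 0.47 (adjusted p = 0.000613), and by 3.12 ± 0.42 (0.000153) without that mouse, from a median of 0.452 to 4.04 CPM. The metallothioneins Mt1 and Mt2, which bind zinc and copper, rose in old ND over young ND by 5.99 ± 1.28 (adjusted p = 0.00576) and 7.31 ± 1.60 (0.0064), with 632 and 505 CPM in old ND replicate 4 against at most 13.3 and 2.66 in the other 5. Without that mouse they were 2.21 ± 0.63 (adjusted p = 0.0446) and 2.11 ± 0.60 (0.047). Cd14, a co-receptor for bacterial lipopolysaccharide, rose by 2.97 ± 0.72 (0.0126), at 6.62 CPM in that mouse and 0.500 to 4.18 in the other 5, and was 2.45 ± 0.71 (0.0482) without it. In old ND replicate 4, 20 of the 26 genes were above all 5 others and 3 were below, with a median ratio of 2.40.

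The negative acute phase genes moved the other way in that mouse. Of 9, 8 were below all 5 other old ND mice, with a median ratio of 0.435, while in old ND over young ND edgeR called 0 of them with or without it (1 and 2 at an unadjusted p under 0.05), beside 8.5% and 4.26% of all genes called and 22.2% at an unadjusted p under 0.05 over 24 mice. Rbp4, the plasma carrier of retinol, was at 986 CPM against 2154 to 3005 in the other 5. Apoa2, an apolipoprotein of high-density lipoprotein, was at 2290 against 4086 to 5788, and Serpina6, the plasma carrier of corticosterone, at 119 against 240 to 292. The exception was Trf, transferrin, at 21997 CPM against 16001 to 20760. In young HFD over young ND 1 of the 9 was called, with and without that mouse, beside 3.5% and 4.95% of genes. It was Serpina6, which rose by 0.87 ± 0.20 (adjusted p = 0.0195), and by 0.90 ± 0.17 (0.00394) without that mouse. In old HFD over old ND edgeR called 0 of the 9 over 24 mice, beside 3.01% of genes, with 5 at an unadjusted p under 0.05, beside 22%. Without that mouse 1 was called there, beside 2.94%, namely Alb, albumin, a gene picked out after its values were seen, which fell by 0.62 on the log2 scale (SE 0.15, adjusted p = 0.0328).

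Of 8 cytokine ligands, 2 had enough counts to test. Il1b rose in old ND over young ND by 3.07 ± 0.81 (adjusted p = 0.0194), with 9.23 CPM in old ND replicate 4 and 0.367 to 3.58 in the other 5, and was 2.38 ± 0.80 (adjusted p = 0.099) without that mouse. Il1a was 1.75 ± 0.66 (adjusted p = 0.1), with 8.91 CPM in that mouse and 0.786 to 3.04 in the others, and 1.16 ± 0.63 (0.373) without it. Macrophages also express Il1b, Cd14 and Cd163, and the Kupffer cell and macrophage markers rose in the same comparison. Of 11 such markers, 11 were called higher with a median of 3.46, from 2.48 (Timd4) to 4.18 (Marco), and 10 without that mouse with a median of 2.97. Of 9 cytokine receptors, 3 were called higher in old ND over young ND and 1 without that mouse, beside 7.26% and 3.81% of all genes. Osmr, the oncostatin M receptor, rose by 2.48 ± 0.65 (adjusted p = 0.0181), Il10rb, a chain of the receptors for interleukin-10 and interleukin-22, by 1.43 ± 0.33 (0.00951), and Tnfrsf1a, a tumor necrosis factor receptor, by 0.47 ± 0.12 (0.0195). Without that mouse Il10rb was still called, at 1.24 ± 0.33 (adjusted p = 0.0337), while Osmr was 1.42 ± 0.55 (0.161) and Tnfrsf1a 0.38 ± 0.11 (0.0621). In the diet comparisons edgeR called 0 of the 9 in young and 0 in old mice, beside 3.5% and 3.01% of all genes. At an unadjusted p under 0.05, 3 passed in each, beside 21.2% and 22%. Without that mouse edgeR also called 0 in each, beside 4.95% and 2.94%. Of these receptors, 7 of 9 were in old ND replicate 4 above all 5 others, and Osmr was at 23.8 CPM against 0.929 to 3.53.

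Of 13 signal transducers and transcription factors, 1 was called higher in old ND over young ND with and without the mouse, a share near the 7.26% and 3.81% of all genes, and 2 and 1 were called lower in old HFD over old ND, beside 3.01% and 2.94% called in either direction. Stat3, the transcription factor downstream of gp130, rose with age on ND by 0.64 ± 0.15 (adjusted p = 0.00901), from a median of 86.3 to 126 CPM, with 198 in old ND replicate 4, and by 0.53 ± 0.13 (0.0257) without that mouse. In old HFD over old ND Stat3 was called lower at -0.56 ± 0.15 (adjusted p = 0.0363), a call lost without that mouse, at -0.41 ± 0.13 (0.081). Tyk2, a JAK kinase, fell in old HFD below old ND by 0.60 on the log2 scale (SE 0.12, adjusted p = 0.00805), and by 0.62 (SE 0.12, adjusted p = 0.0058) without it. Of the early cytokine targets and feedback inhibitors, 4 of 8 were called higher with age on ND, and 2 of 9 without that mouse, against the same 7.26% and 3.81%. Socs3, the feedback inhibitor of gp130 signaling, rose by 1.86 ± 0.47 (adjusted p = 0.0157), with 126 CPM in old ND replicate 4 against 8.58 to 33.6 in the other 5. Nfkbiz, an NF-kappaB cofactor, rose by 1.14 ± 0.19 (0.00235), Junb, an AP-1 factor, by 0.94 ± 0.22 (0.00968) and Tnfaip3, an inhibitor of NF-kappaB signaling, by 1.52 ± 0.39 (0.0166). Without that mouse Nfkbiz was 1 ± 0.18 (adjusted p = 0.00614) and Junb 0.93 ± 0.23 (0.0231), both called, while Socs3 was 0.99 ± 0.37 (0.146) and Tnfaip3 1.24 ± 0.37 (0.0584). In young HFD over young ND, 1 of 8 was called higher and 1 lower, beside 3.5% of genes, and 1 and 1 of 9 without that mouse, beside 4.95%. Nfkbiz rose there by 0.73 ± 0.19 (adjusted p = 0.0386), and by 0.76 ± 0.18 (0.0168) without it. Gadd45g, a stress-induced gene picked out after its values were seen, fell by 1.98 (SE 0.56, adjusted p = 0.0494), with an adjusted p of 0.0384 without it. In old HFD over old ND, Socs3 alone of the 8 was called, beside 3.01% of genes, and fell by 1.79 (SE 0.48, adjusted p = 0.0396). Without old ND replicate 4 it was -0.94 ± 0.37 (adjusted p = 0.136) and edgeR called 0 of 9 (4 at an unadjusted p under 0.05). In that mouse 6 of 8 were above all 5 others.

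Of 7 tested genes for scavenger receptors, heme handling and relatives of Itih4, 1 was called higher with age on ND by edgeR and 0 without that mouse, beside 7.26% and 3.81% of all genes. Without that mouse 2 had an unadjusted p under 0.05, Hmox1 with a higher value and Lrp2 with a lower one. The called gene was Hmox1, heme oxygenase 1, at 1.52 ± 0.41 (adjusted p = 0.0205), and 1.22 ± 0.39 (0.0762) without it. The receptor that clears haptoglobin with hemoglobin, Cd163, was 2.58 ± 0.86 (adjusted p = 0.0641), with 45.0 CPM in old ND replicate 4 against 0.282 to 5.54 in the other 5, and 0.90 ± 0.72 (0.593) without that mouse. In young HFD over young ND, Lrp2, megalin, an endocytic receptor that takes up Lcn2 among other ligands, fell by 2.18 on the log2 scale (SE 0.48, adjusted p = 0.0169), from a median of 2.00 to 0.339 CPM, and by 2.14 (SE 0.49, adjusted p = 0.0155) without old ND replicate 4. It was the 1 gene of the list called in that comparison, beside 3.5% of all genes. Itih1, a relative of Itih4, was -0.26 ± 0.12 (adjusted p = 0.196) in young HFD over young ND. Of 6 glucocorticoid targets, edgeR called 0 with age on ND (2 at an unadjusted p under 0.05), and 1, Tsc22d3, a glucocorticoid-induced leucine zipper protein, rose in old HFD over old ND by 1.15 ± 0.25 (adjusted p = 0.0159), and by 1.24 ± 0.26 (0.0131) without old ND replicate 4, beside 3.01% and 2.94% of genes.

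**Figure D4:**
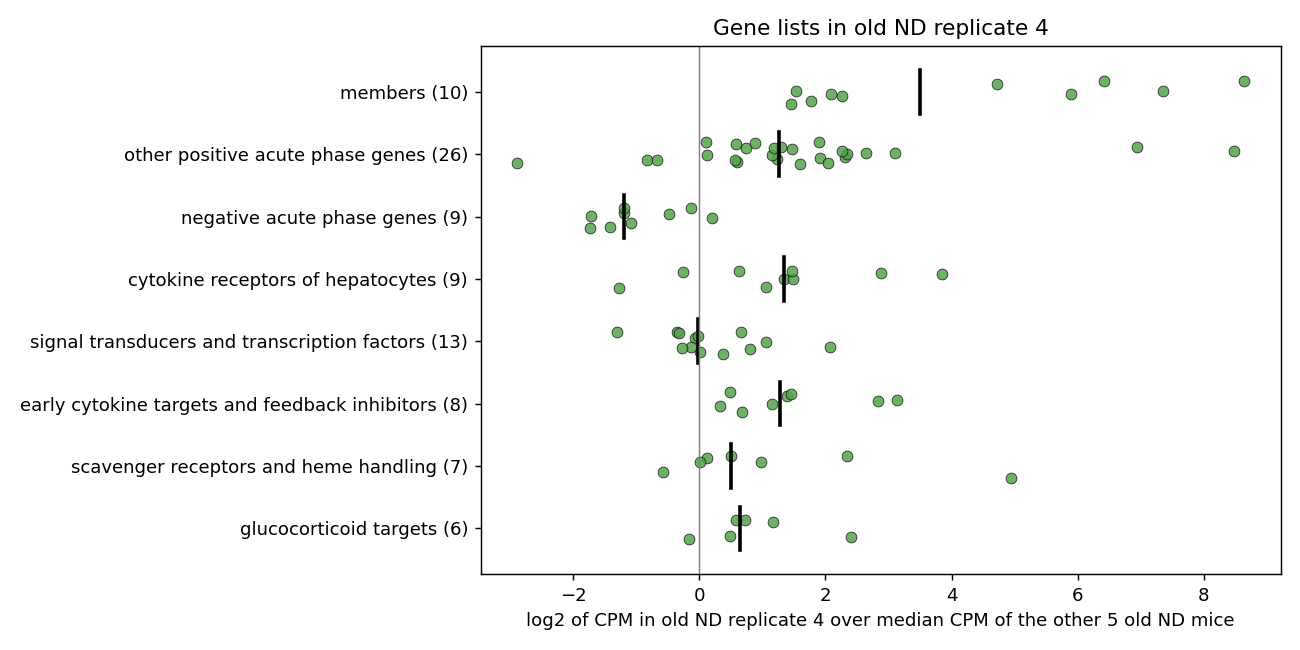
For the members and each list except the cytokine ligands, log2 of the CPM in old ND replicate 4 over the median CPM of the other 5 old ND mice, with 1 point per gene, a bar at the list's median and the number of genes in brackets. The 10 members and 20 of 26 other positive acute phase genes lie to the right above every other old ND mouse, and 8 of 9 negative acute phase genes lie to the left.

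Transcripts of other cells moved with these results. The summed level of 12 neutrophil markers was 0.132 to 1.44 CPM in young ND, 0.225 to 4.29 in young HFD, 0.611 to 85.7 in old ND and 1.82 to 60.2 in old HFD, with medians of 0.552, 1.72, 4.19 and 12.5. Its defining gene Ly6g was at 0 in all 24 mice. The 85.7 came from old ND replicate 4 and the 60.2 from old HFD replicate 2. The summed level of 11 Kupffer cell and macrophage markers was 1.95 to 88.0, 16.3 to 229, 57.9 to 1444 and 72.5 to 736 CPM in the same order, with 1444 in old ND replicate 4. None of the 11 was at 0 in all mice of a group. By edgeR, 1 of the 11 was called higher in young HFD over young ND, 0 in old HFD over old ND, 0 in old HFD over young HFD and 10 in old HFD over young ND, and without old ND replicate 4 the counts were 4, 0, 0 and 11. The shares of all genes called in either direction were 3.5%, 3.01%, 2.24% and 30.2%, and 4.95%, 2.94%, 2.9% and 32.2% without that mouse. Of 5 neutrophil markers with enough counts, 4 were called higher in old ND over young ND and 0 without that mouse, 1 and 3 in old HFD over young HFD, and 4 and 4 in old HFD over young ND, where 17.3% and 20.2% of all genes were called higher. Endothelial and stellate cell markers moved in the same comparisons. Of 7 sinusoidal endothelial markers, 1 was called higher in young HFD over young ND over 24 mice and 6 without old ND replicate 4, the fits in which 0 and 2 of the 10 acute phase genes were called. In old ND over young ND 4 of the 7 were called and 0 without that mouse, beside 7.26% and 3.81% of genes called higher, and in old HFD over young ND 7 in both. Of 7 stellate cell markers, 2 and 2 were called higher in young HFD over young ND, 6 and 4 in old ND over young ND, and 6 and 6 in old HFD over young ND. Neither list had a call in old HFD over old ND or old HFD over young HFD. In old ND replicate 4 the endothelial markers summed to 624 CPM (32.5 to 167 in the other 5 old ND mice), the stellate cell markers to 466 (87.6 to 199) and the B cell markers to 138 (27.8 to 49.96). The T cell markers summed to 2.44 (0.855 to 8.89), the cholangiocyte markers to 54.4 (8.71 to 25.9) and the adipocyte markers to 10.4 (9.64 to 35.9). The 8 hepatocyte markers, 3 of which are negative acute phase genes, summed to 43458 CPM in that mouse and to 75321 to 157046 in the other 23. Alb, 1 of these 3, made up most of the sum, at 29008 CPM in that mouse against 82623 to 128235 in the other 5 old ND mice. The sum therefore largely repeats the values of negative acute phase genes. The part of other cells in the results was not tested, and fewer cells of a type cannot be told apart from less RNA per cell in such bulk samples.

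**Figure D5:**
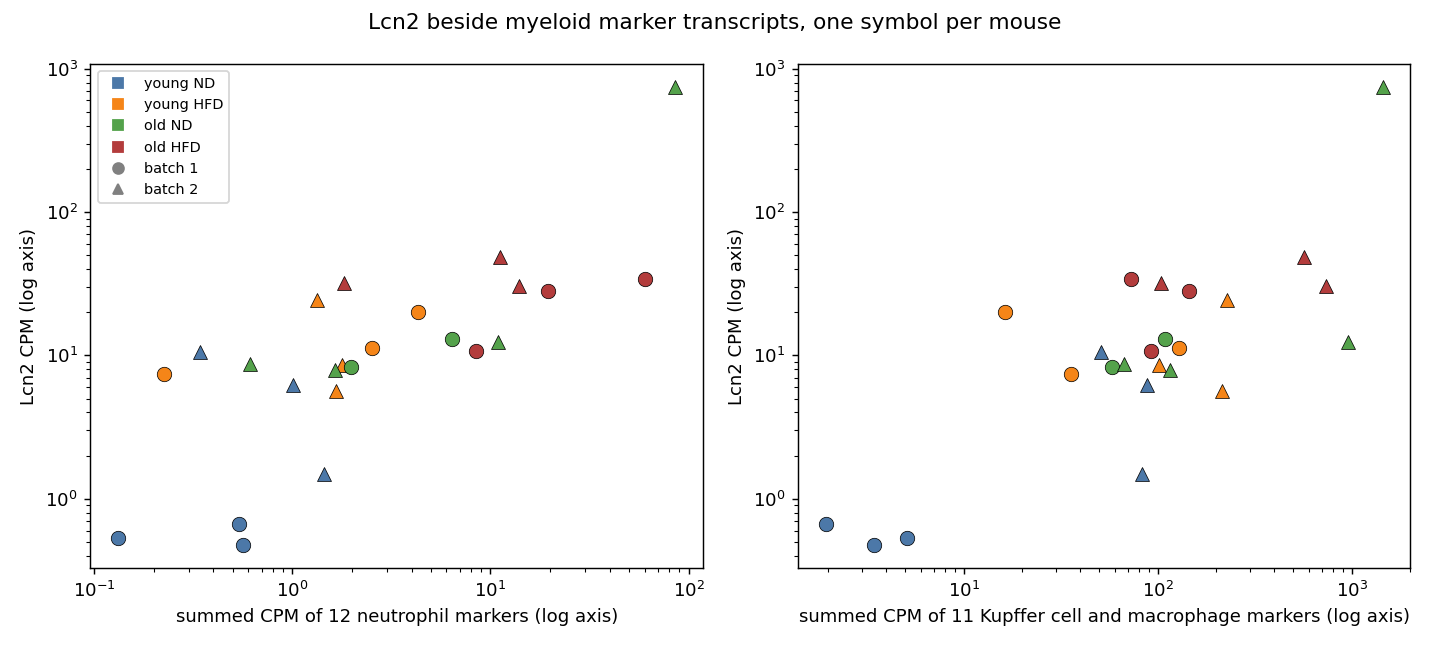
Lcn2 CPM against the summed CPM of 12 neutrophil markers (left) and of 11 Kupffer cell and macrophage markers (right), with log axes, 1 symbol per mouse, colours for groups and shapes for batches. Old ND replicate 4 is at the upper right of both panels with 747 CPM of Lcn2, and the 3 young ND mice of batch 1 are at the lower left.

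Whether the same mice were high for several genes was examined over the 24 mice in log2 CPM, with each value centred on the mean of its group and batch and 100000 permutations within group and batch, for 29 relations. Saa1 and Saa2 had r = 0.988 (adjusted permutation p = 0.000773) and rho = 0.926 (adjusted permutation p = 0.00319), and r = 0.965 without the 2 mice farthest from the median of Saa1, young ND replicate 6 and old ND replicate 4. For Saa1 and Orm2, r was 0.930 (adjusted permutation p = 0.000773), rho 0.805 (0.0109) and r without the same mice 0.856. For Saa1 and Orm1, r was 0.923 (adjusted permutation p = 0.00058), rho 0.809 (0.00319) and r without them 0.862. For Saa1 and Itih4, r was 0.784 (adjusted permutation p = 0.0949), rho 0.666 (0.0495) and r without them 0.475. Of 29 relations 12 had an adjusted p under 0.05 for r, and 3 did with the 2 farthest mice left out. For the neutrophil markers and Lcn2, r was 0.650 (adjusted permutation p = 0.0528), rho 0.408 (0.167) and r without the 2 farthest mice, old ND replicates 4 and 6, 0.276, so that relation rested on those mice. The neutrophil markers had an adjusted permutation p under 0.05 for r with Orm1 (r = 0.698, adjusted permutation p = 0.0245), Orm2 (0.712, 0.0381), Hp (0.701, 0.0381) and Hpx (0.674, 0.0415), with r from 0.319 to 0.394 without the same 2 mice and no rho that passed. The Kupffer cell and macrophage markers had one with Hpx, at r = 0.733 (adjusted permutation p = 0.0124), rho = 0.714 (0.0138) and r = 0.587 without the same mice.

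The genes outside the 10 whose log2 CPM followed a member most closely over the 24 mice, with group differences left in, are given for 4 members. For Hp they were Serpina10, the protein Z-dependent protease inhibitor (r = 0.943, and 0.882 without old ND replicate 4), Lbp, the lipopolysaccharide-binding protein (0.889 and 0.785) and Clu, clusterin (0.860 and 0.818). For Orm2 they were Serpina10 (0.927 and 0.810), Apcs, serum amyloid P (0.859 and 0.535) and Lbp (0.841 and 0.670). For Lcn2 they were Lbp (0.863 and 0.778), Mt1 (0.859 and 0.774) and Mt2 (0.854 and 0.767), and for Saa1 Serpina10 (0.816 and 0.585), Lrg1, a leucine-rich plasma glycoprotein (0.813 and 0.641) and Lbp (0.780 and 0.562). In old ND replicate 4, Apcs was at 948 CPM against at most 180 in the other 23 mice, and Lrg1 at 1525 against at most 559.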

How the data were processed

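RNA-seq of isolated hepatocytes was used from 24 male mice in 4 groups of 6, with groups, replicate numbers and batches as the labels give them. The authors deposited raw counts of reads on each gene, obtained by 2-pass STAR (2.7.3a) alignment to mm10 with the Gencode annotation, SAMtools filtering and HTSeq (0.11.2) counting, with versions from the submitters' processing notes. Handling of strand and duplicates is not given in the sources used here. The authors also deposited FPKM values from CuffLinks, adjusted between batches, where ComBat is known only from the name of the table. A batch adjustment that rescales each gene compresses or stretches its values differently in the batches, so FPKM served only for levels between genes and as an alternative. 0 columns of either table lacked a sample. The authors called differential expression with DESeq2.

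Counts were tested with edgeR 4.0.16 (R 4.3.3): TMM, filterByExpr by group, 1 model of group and batch over 24 mice, quasi-likelihood F tests, and Benjamini-Hochberg adjustment over all tested genes within each comparison at 0.05. Each SE given with an edgeR value is the absolute log2 fold change divided by the square root of the quasi-likelihood F, and not a separately estimated error. The script was tested on simulated data. CPM used TMM library sizes, and log2 CPM a prior count of 2. Alternatives were DESeq2 1.42.0, limma 3.58.1 on log2(FPKM + 1) and log2(FPKM + 0.1), RLE, no batch term, no count filter, the 2 groups alone, each batch alone, the replicate number as a block, and leaving out each mouse. Leaving out 3 mice together was added after seeing the data. Replicates are separately labelled samples, taken as 1 mouse each. Totals of 9200332 to 22185069 counts limit the precision of low genes, and counts of PCR-amplified reads cover counting error only. No 2 libraries of a group agreed within sampling noise (chi-square per degree of freedom of at least 14.5).

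The 10 genes and all lists were chosen with earlier results of these data known. Every member is named, of each list at most the 4 genes with the smallest adjusted p in the comparisons of diet at each age and of age on ND, and for 4 members the 3 genes most alike. Alb and Gadd45g were added to these after their values were seen, and Timd4 and Marco mark the ends of a range. Gene positions and transcripts are from GENCODE vM21 (GRCm38), and start regions from RefSeq (GRCm38.p6), where 8 of 10 genes matched. A comparison of protein sequences was planned and was not run, and transcripts were compared in its place. Python 3.11.15, numpy 2.4.6, pandas 2.3.3, biopython 1.88 and matplotlib 3.10.9 were used.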

Additional observations from a re-analysis of the deposited data

Results flagged for a closer look

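Of 40 tests for a mouse far from the others of its group (10 genes in 4 groups of 6, on log2 CPM), 9 gave a gap to the nearest mouse larger than 0.625 of the group's range, Dixon's critical value, which chance alone exceeds in about 1 of 20 groups. Of the 9, 8 were in old ND replicate 4, each as the highest mouse. The log2 CPM there was 13.55 for Saa2, 13.26 for Saa1, 9.54 for Lcn2, 10.04 for Orm2, 5.91 for Orm3, 11.74 for Orm1, 13.80 for Hp and 12.79 for Itih4. The gap took 0.905 of the range for Saa1, 0.891 for Lcn2 and 0.884 for Saa2, and 0.694 for Hp. These are 8 readings of 1 library and not independent. The ninth was Lcn2 in old HFD replicate 1, the lowest of its group, at a log2 CPM of 3.44 (10.8 CPM) with a gap of 0.634. Their causes were not tested.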

How the results depend on the processing

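Leaving out each mouse in turn, 1 to 10 of the 10 genes were called in old ND over young ND, 0 to 2 in young HFD over young ND, 0 to 1 in old HFD over old ND, 0 to 1 in old HFD over young HFD and 4 to 7 in old HFD over young ND, where the main counts were 6, 0, 0, 0 and 5. The values without old ND replicate 4 were 1, 2, 1, 1 and 7, beside 4.26%, 4.95%, 2.94%, 2.9% and 32.2% of all genes. In the main test these shares were 8.5%, 3.5%, 3.01%, 2.24% and 30.2%. The lowest and the highest log2 fold changes over the same mice were -0.76 and 5.10 for Saa1, -1.03 and 6.77 for Saa2 in old ND over young ND. In old HFD over old ND they were -2.79 and 1.64 for Saa1, -1.73 and 1.62 for Lcn2 and -0.57 and 2.32 for Orm3. Orm3 there was -0.18 without old ND replicate 1, -0.16 without old ND replicate 2, -0.57 without old HFD replicate 2 and 2.32 without old ND replicate 4. Leaving out old ND replicate 5 or 6, old ND over young ND had 10 calls, and without old HFD replicate 3 or 5, old HFD over young HFD had 1. These fits kept old ND replicate 4, and their shares over all genes are not given here. Hp in old HFD over young ND lost its call without young ND replicate 6 or old HFD replicate 2 (lowest 0.68).

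In the order young HFD over young ND, old HFD over old ND, old ND over young ND, old HFD over young HFD and old HFD over young ND, the calls were 0, 0, 6, 0 and 5 in the main test. DESeq2 gave 0, 0, 3, 1 and 3, no count filter 6, 5, 10, 5 and 8 (and 5 for the interaction), the 2 groups alone 4, 0, 3, 0 and 6, batch 1 alone 3, 0, 2, 0 and 8, and batch 2 alone 0 in each. limma on log2(FPKM + 1) gave 0, 0, 0, 0 and 5, and on log2(FPKM + 0.1) 1, 0, 4, 0 and 5. Leaving out old ND replicate 4 and old HFD replicates 2 and 4, they were 4, 1, 3, 0 and 5. The calls over all genes moved as well. In the same order they were 475, 409, 1155, 304 and 4100 in the main test, 1255, 1123, 1676, 859 and 4675 with DESeq2, 1473, 1108, 2053, 1235 and 4623 without the count filter (and 587 for the interaction, against 0), and 2302, 15, 1331, 48 and 2094 with the 2 groups alone. Batch 1 alone gave 130, 15, 93, 9 and 919, batch 2 alone 9, 16, 2, 0 and 617, limma 196, 182, 91, 55 and 2401 at log2(FPKM + 1) and 219, 230, 316, 71 and 2532 at log2(FPKM + 0.1), and leaving out the 3 mice 1980, 232, 1163, 64 and 3333. For the 10 genes, RLE and the model without batch stayed within 1 call of the main counts, while over all genes RLE gave 465, 478, 1171, 328 and 4150 calls and the model without batch 174, 266, 628, 116 and 3049. The cause was not tested, except that single batches and left-out mice have fewer samples.

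In old HFD over old ND, Saa1 was 0.16 with limma at both pseudocounts, 1.18 in batch 1 alone and 0.64 without the 3 mice. Lcn2 there was 0.60 and 0.71 with limma, 1.13 in batch 1 alone and 1.31 without the 3 mice. Orm3 there was -0.97 in batch 2 alone, a fit that kept old ND replicate 4. Without that mouse its mean log2 CPM difference in batch 2 was 1.55. Without the 3 mice Saa1 was -0.70 and Saa2 -1.09 in old ND over young ND. Of the correlations, 29 of 29 passed with values not centred and 3 with the 2 farthest mice left out, against 12.

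The labels give the groups the same replicate numbers, which belong to different mice. The deviations of same-numbered mice had a mean correlation of 0.18 (lowest -0.32), and -0.00199 after batch means were removed, so the numbers do not pair the mice. A fit with a replicate block instead of batch gave 0, 0, 6, 0 and 5 calls, and Lcn2 in old HFD over old ND was 0.0875.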
